A study of Mus musculus with 30 samples.

Results

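The genes described here are 9 genes for proteins of the specific and gelatinase granules of neutrophils, namely Ltf, Camp, Ngp, Lcn2, Cd177, Chil3, Olfm4, Mmp8 and Mmp9. They were chosen by name from the 24957 gene symbols in each of 2 tables of RPKM (read counts scaled for transcript length and for the mapped reads of the library), 1 for spleen and 1 for lymph node (LN). All 9 were present in both tables, and all 9 passed the filter on low values, which kept genes reaching 1 RPKM in 3 or more spleen libraries or in 4 or more LN libraries.

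The study measured poly(A)-enriched RNA in 30 mouse libraries to compare lymphoid organs of knockout mice with those of wild-type mice given imiquimod (IMIQU), an agonist of the RNA sensor TLR7. The knockouts lacked Padi2 (Pad2-/-) or Padi4 (Pad4-/-), which encode peptidylarginine deiminases, enzymes that turn arginine in proteins into citrulline. In spleen there were 3 IMIQU Pad2-/- libraries, 3 control Pad2-/-, 3 IMIQU Pad4-/-, 3 control Pad4-/-, 3 IMIQU WT and 3 control WT libraries. In the LN there were 4 Pad2-/-, 4 Pad4-/- and 4 WT libraries, all from mice given IMIQU, so that the LN has no untreated baseline. WT mice are named FVB in the titles and the controls "Na". The strain of the knockouts, the dose, the route, the duration and the age were not stated in the labels used here, and the labels' protocol mentions imiquimod-treated mice for every sample, the 9 labelled control included. The labels do not say that replicates are separate animals, so p-values measure how far these libraries scatter, which could be technical scatter only.

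A neutrophil makes its granule proteins in waves as it matures in the marrow: azurophil granule proteases first, in promyelocytes, then specific granule proteins in myelocytes and metamyelocytes, then gelatinase granule proteins in band cells. The transcription factor C/EBP epsilon is needed for the specific granule wave in mice, and transcripts of the early waves are largely lost in mature blood neutrophils. In mice, the red pulp of the spleen can itself make granulocytes, above all under inflammation.

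The RPKM of a spleen library summed to 350314 to 506819 and those of an LN library to 368211 to 468564, and the absolute depth is unknown. Padi2 was at 0.468 to 1.200 RPKM in Pad2-/- spleen libraries and 4.74 to 10.5 in WT ones, and Padi4 was at 0.0693 to 0.259 in Pad4-/- spleen libraries and 1.202 to 25.3 in WT ones. In the LN, Padi4 was at 0.0958, 0.131, 0.607 and 1.1703 RPKM in the libraries labelled Pad4-/-, against 0.952, 0.869, 1.05 and 0.679 in WT. Replicates 3 and 4 of that group thus went against their label, and the 4 are called the LN libraries labelled Pad4-/- throughout. Replicate 2 of the Pad2-/- LN libraries stood apart by its low level of every granule gene. The Padi2 levels of the LN libraries are not given here, so the Pad2-/- LN labels are not checked in this text.

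In the RefSeq annotation of GRCm38.p6, 4 of the 9 genes lie on chromosome 9. They are Camp at chr9:109847377-109849456, Ngp at chr9:110419808-110423012, Ltf at chr9:111019292-111042766 and Mmp8 at chr9:7558429-7568486. Camp encodes the antimicrobial cathelicidin, Ngp a relative of cathelicidins found in mouse neutrophils, Ltf the iron-binding lactotransferrin, and Mmp8 the neutrophil collagenase. Lcn2, for a lipocalin that sequesters bacterial siderophores, lies at chr2:32384637-32387739, and Mmp9, for gelatinase B, at chr2:164940326-164955850. Cd177, for a surface protein of neutrophils, lies at chr7:24743983-24760334, Chil3, for the chitinase-like lectin Ym1, at chr3:106147554-106167564, and Olfm4, for olfactomedin 4, a glycoprotein of a subset of neutrophils, at chr14:80000302-80023141.

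The 250 bases before the start used in the RefSeq promoter set were examined for 8 of the genes. Mmp9 had no entry there and was not examined. The Cd177 window, chr7:24760312-24760561 (minus strand), runs into the gene interval given above, which ends at 24760334. The C/EBP core letters TTGCNNAA, searched on both strands, were in 4 of these 8 promoters and in 9.56% of 32851 promoters of the same length. No link between these letters and the level of Cebpe, the gene for C/EBP epsilon, was tested. The 4 promoters that hold the letters are shown. They are printed 5' to 3' on the strand of the gene with the matched letters in capitals, for Ngp at chr9:110419558-110419807 (plus strand), Ltf at chr9:111019042-111019291 (plus strand), Lcn2 at chr2:32387740-32387989 (minus strand) and Mmp8 at chr9:7558179-7558428 (plus strand).
Ngp: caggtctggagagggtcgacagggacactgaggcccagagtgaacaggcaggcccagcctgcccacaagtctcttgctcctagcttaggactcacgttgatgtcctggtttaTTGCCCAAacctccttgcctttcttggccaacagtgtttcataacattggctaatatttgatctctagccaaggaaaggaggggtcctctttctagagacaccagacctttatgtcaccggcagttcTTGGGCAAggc
Ltf: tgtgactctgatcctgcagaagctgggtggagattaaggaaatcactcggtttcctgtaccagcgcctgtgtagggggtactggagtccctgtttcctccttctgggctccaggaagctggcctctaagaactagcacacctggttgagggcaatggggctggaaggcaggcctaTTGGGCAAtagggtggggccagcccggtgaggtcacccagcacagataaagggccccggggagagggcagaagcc
Lcn2: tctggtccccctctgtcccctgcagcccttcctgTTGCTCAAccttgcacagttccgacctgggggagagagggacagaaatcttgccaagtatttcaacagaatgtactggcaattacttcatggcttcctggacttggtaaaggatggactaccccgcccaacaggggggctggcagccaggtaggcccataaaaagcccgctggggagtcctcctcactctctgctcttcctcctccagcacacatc
Mmp8: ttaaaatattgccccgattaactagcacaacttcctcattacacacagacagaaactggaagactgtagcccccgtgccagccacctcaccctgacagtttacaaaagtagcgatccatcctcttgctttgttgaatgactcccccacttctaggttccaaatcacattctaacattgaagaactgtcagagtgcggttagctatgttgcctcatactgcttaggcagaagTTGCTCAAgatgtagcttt
The Ngp window holds the letters at 2 places and the other 3 windows at 1 place each. The windows of Camp, Cd177, Chil3 and Olfm4 do not hold these letters. The ETS letters GAGGAA, also searched on both strands, were in 5 of the 8 promoters (Lcn2, Cd177, Mmp8, Ltf and Olfm4) and in 23.3% of all promoters. The letters TATAAA, searched on the strand of the gene only, were in 1 of the 8, that of Cd177, and in 7.59% of all promoters. A match is a description of letters only, and the 3 motifs can overlap.

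Imiquimod spleens held more RNA of every one of the 9 genes than control spleens, in each genotype. Ngp, the most abundant of them, was at 2750, 3183 and 2846 RPKM in IMIQU Pad2-/- spleens, against 420, 256 and 328 in control Pad2-/- spleens. In Pad4-/- spleens it was at 1957, 2764 and 736 under IMIQU, against 69.4, 82.6 and 119 in controls. In WT spleens it was at 870, 3431 and 2194 under IMIQU, against 150, 266 and 151 in controls. No control library reached the lowest IMIQU library of its genotype.

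Ltf stood at 795, 836 and 850 RPKM in IMIQU Pad2-/- spleens, against 126, 76.4 and 107 in control Pad2-/- spleens. In Pad4-/- spleens Ltf was at 466, 658 and 194 under IMIQU, against 22.98, 24.4 and 35.2 in controls. In WT spleens it was at 201, 852 and 548 under IMIQU, against 40.2, 79.3 and 46.2 in controls. The 3 IMIQU Pad2-/- libraries lay close together, whereas 1 library each of the IMIQU Pad4-/- and IMIQU WT groups, replicate 3 and replicate 1, was well below the others of its group.

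Differences were tested with limma on log2(RPKM + 0.5), with all groups of a tissue in 1 fit and Benjamini-Hochberg adjustment over all genes, and a gene is said to have risen or fallen where the adjusted p was below 0.05. Fold changes on this scale understate those of low genes. All 9 genes rose with IMIQU in Pad2-/- spleen, where 36.3% of the 11982 genes tested rose. All 9 also rose in Pad4-/- spleen, where 33.9% of all genes rose, and in WT spleen, where 40.3% rose. With so much of the transcriptome called, the size of the change says more than the call. The median of the 9 log2 fold changes was 3.10 in Pad2-/-, 3.83 in Pad4-/- and 3.28 in WT, beside medians over all genes of -0.02, -0.04 and 0.06. The libraries of both groups did not overlap for any of the 9 genes in any genotype, as was the case for 37.2% of all genes, higher under IMIQU, in Pad2-/-, 37.6% in Pad4-/- and 41.8% in WT. Under quantile normalization the median over all genes moved by -0.20 in WT and by -0.11 in Pad2-/-, and the share of WT calls that were rises went to 41.8%, against 54.8% without it. All 9 genes still rose there in each genotype.

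**Figure D1:**
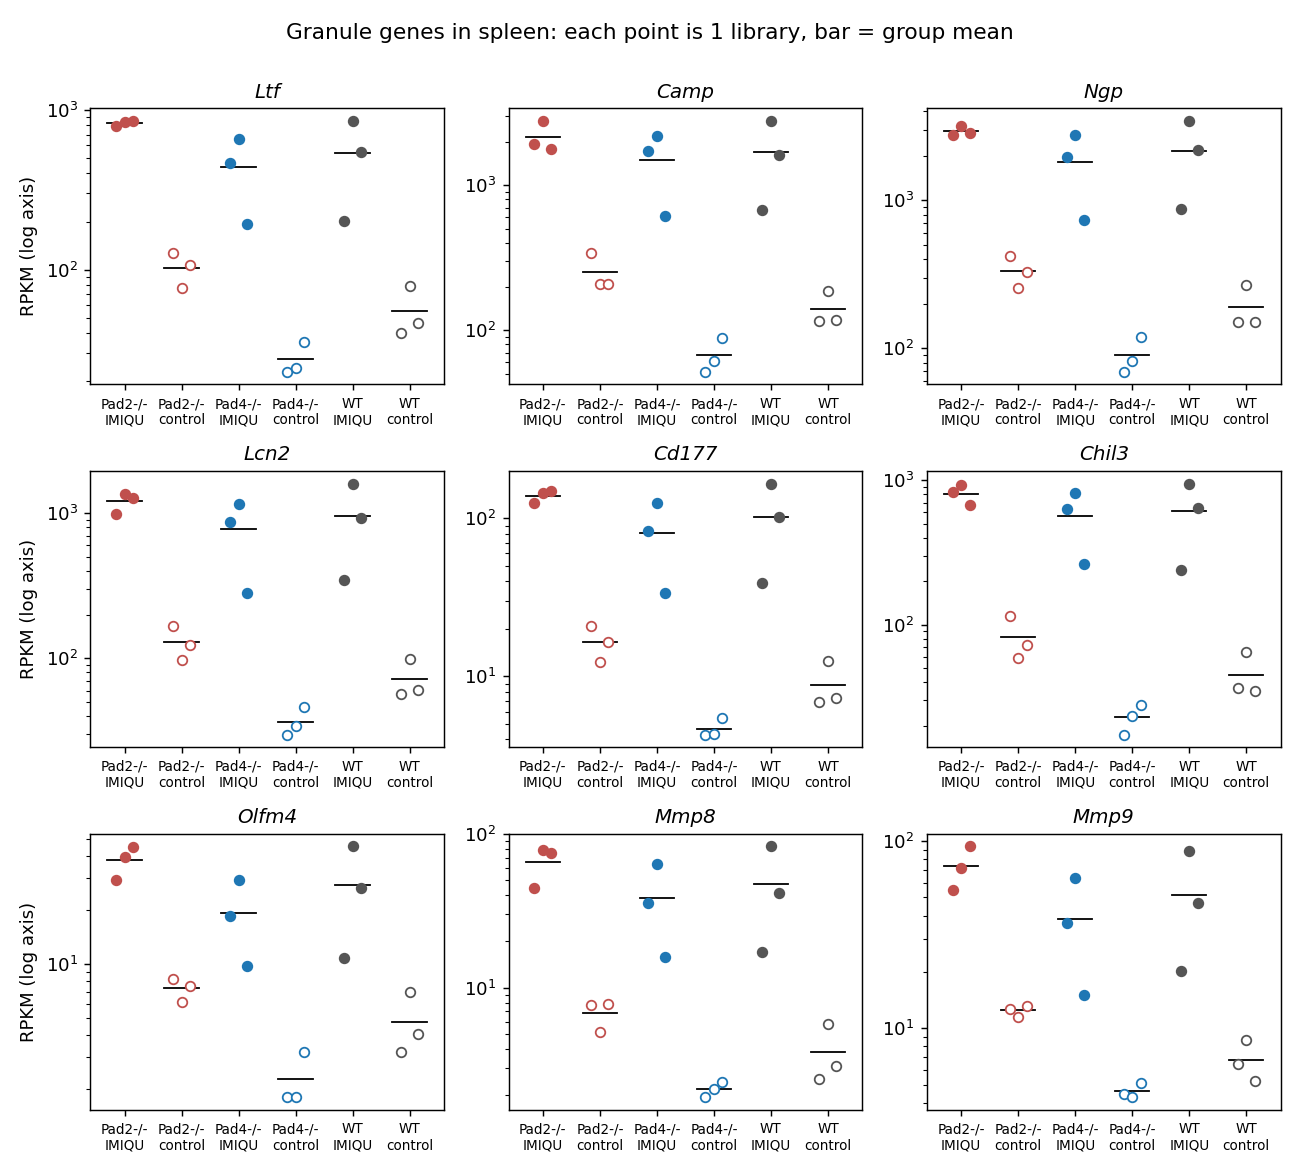
RPKM of the 9 granule genes in the 18 spleen libraries, on log axes. Filled points are imiquimod and open points control libraries, each point is 1 library, and bars are group means; for every gene the filled points of a genotype lie above its open points.

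Among the specific granule genes, Chil3 had the largest change in each genotype. It averaged 808 ± 127 RPKM in IMIQU Pad2-/- spleens and 82.3 ± 29.2 in control Pad2-/- spleens (SD, n = 3 each), a log2 fold change of 3.33 ± 0.46 (SE, limma adjusted p = 1.33e-05). In Pad4-/- spleens it averaged 570 ± 282 RPKM under IMIQU and 22.8 ± 5.21 in controls, a log2 fold change of 4.49 ± 0.46 (limma adjusted p = 9.4e-07). In WT spleens it averaged 610 ± 356 RPKM under IMIQU and 45.2 ± 16.6 in controls, a log2 fold change of 3.58 ± 0.46 (limma adjusted p = 5.36e-06). Ym1 is also made by alternatively activated macrophages. The near-identical paralog Chil4, with which Chil3 could share reads, reached at most 0.346 RPKM in any spleen library, in replicate 2 of IMIQU Pad2-/-.

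Camp rose by 3.10 ± 0.48 in Pad2-/-, 4.32 ± 0.48 in Pad4-/- and 3.41 ± 0.48 in WT spleen on the log2 scale. Lcn2 rose by 3.24 ± 0.51, 4.17 ± 0.51 and 3.51 ± 0.51 in the same order of genotypes, and Cd177 by 3.06 ± 0.46, 3.79 ± 0.46 and 3.28 ± 0.46. Ngp rose by 3.15 ± 0.47, 4.16 ± 0.47 and 3.36 ± 0.47, and Ltf by 3.03 ± 0.46, 3.83 ± 0.46 and 3.09 ± 0.46. Within each genotype the intervals of 1 standard error of these 5 genes overlapped.

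Of the matrix proteases, Mmp8 was at 44.3, 78.4 and 75.5 RPKM in IMIQU Pad2-/- spleens, against 7.76, 5.11 and 7.78 in control Pad2-/- spleens. It rose by 3.15 ± 0.51 in Pad2-/-, 3.65 ± 0.51 in Pad4-/- and 3.28 ± 0.51 in WT spleen, within the range of the specific granule genes. Mmp9 was at 54.9, 71.8 and 93.9 RPKM in IMIQU Pad2-/- spleens, against 12.8, 11.5 and 13.2 in control Pad2-/- spleens. Its log2 fold changes of 2.48 ± 0.46, 2.71 ± 0.46 and 2.63 ± 0.46 in Pad2-/-, Pad4-/- and WT were smaller. Olfm4 was at 10.8, 45.3 and 26.6 RPKM in IMIQU WT spleens, against 3.22, 6.92 and 4.07 in control WT spleens. Its log2 fold changes were 2.29 ± 0.44 in Pad2-/-, 2.73 ± 0.44 in Pad4-/- and 2.27 ± 0.44 in WT. Olfm4 and Mmp9 had the smallest changes of the 9 genes in Pad2-/-, Pad4-/- and WT alike.

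**Figure D2:**
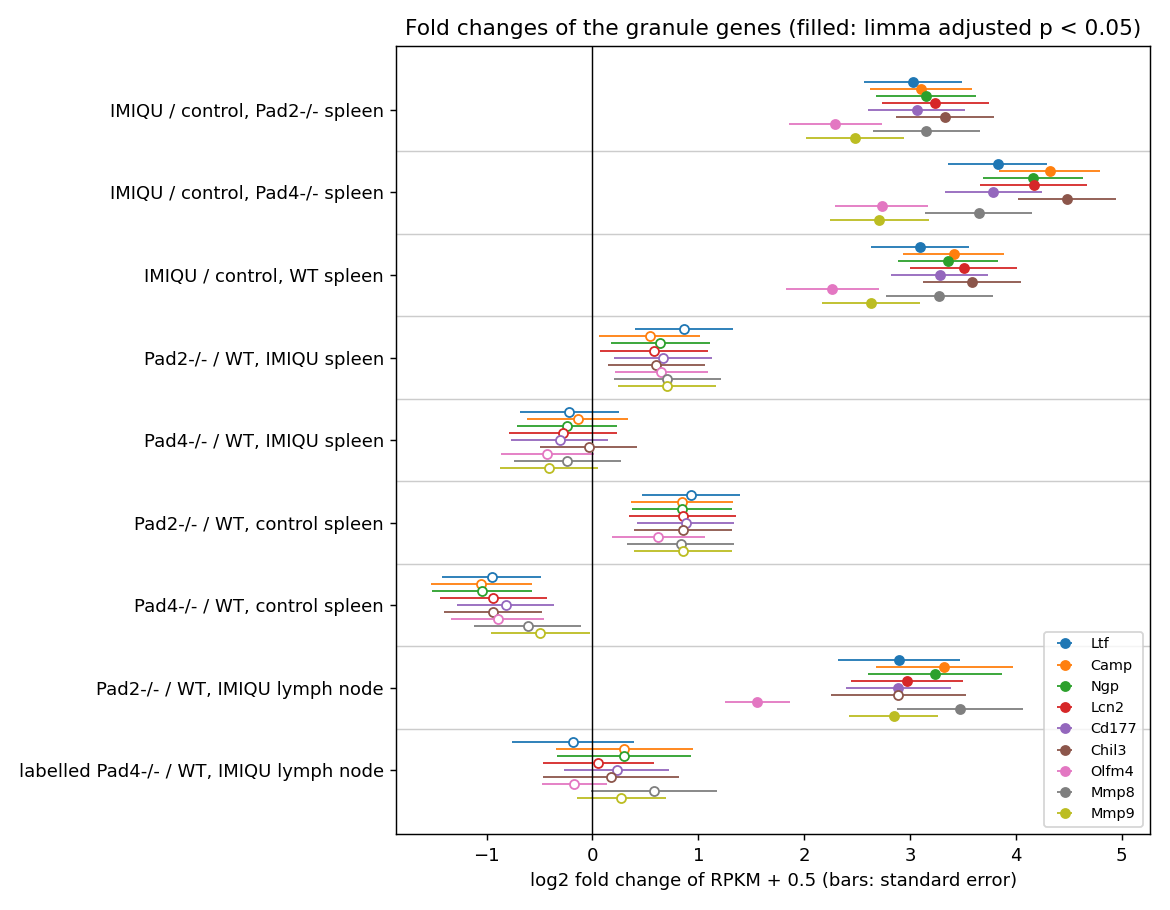
Log2 fold changes of the 9 genes with standard errors in 9 comparisons, named on the vertical axis as numerator over denominator; filled points passed an adjusted p of 0.05. The 27 imiquimod responses in spleen are filled and lie between 2.27 and 4.49, the knockout differences in spleen are open, and 8 of 9 points are filled for Pad2-/- over WT in the lymph node.

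A ratio of 2 genes within a library cancels the scaling of that library, so each gene was also set against Ngp, the most abundant. The log2 ratio to Ngp was compared between the 9 IMIQU and 9 control spleen libraries by an exact permutation test, two-sided, with labels permuted within genotype over 8000 arrangements, and p was adjusted over the 8 ratios. The Olfm4 ratio averaged -6.37 ± 0.22 in IMIQU libraries and -5.39 ± 0.17 in control libraries (SD, n = 9 each), a difference of -0.98 (exact permutation p = 0.00025, the smallest the design allows, adjusted p = 0.00133), and the libraries did not overlap. The Mmp9 ratio averaged -5.45 ± 0.24 in IMIQU and -4.59 ± 0.34 in control libraries, a difference of -0.87 (exact permutation p = 0.0005, adjusted p = 0.00133). Both ratios were lower under IMIQU in each genotype, by -0.78 in Pad2-/-, -1.18 in Pad4-/- and -0.97 in WT for Olfm4 and by -0.62, -1.34 and -0.64 for Mmp9. Smaller shifts passed for Ltf, lower by -0.23 (exact permutation p = 0.0005, adjusted p = 0.00133), and for Chil3, higher by 0.26 (exact permutation p = 0.002, adjusted p = 0.004). The ratios of Camp, Lcn2, Cd177 and Mmp8 did not pass, with differences of 0.06, 0.09, -0.10 and -0.02 and adjusted exact permutation p-values of 0.448, 0.122, 0.109 and 0.850. The 4 ratios that passed did so also with Camp in place of Ngp and without any 1 library.

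**Figure D3:**
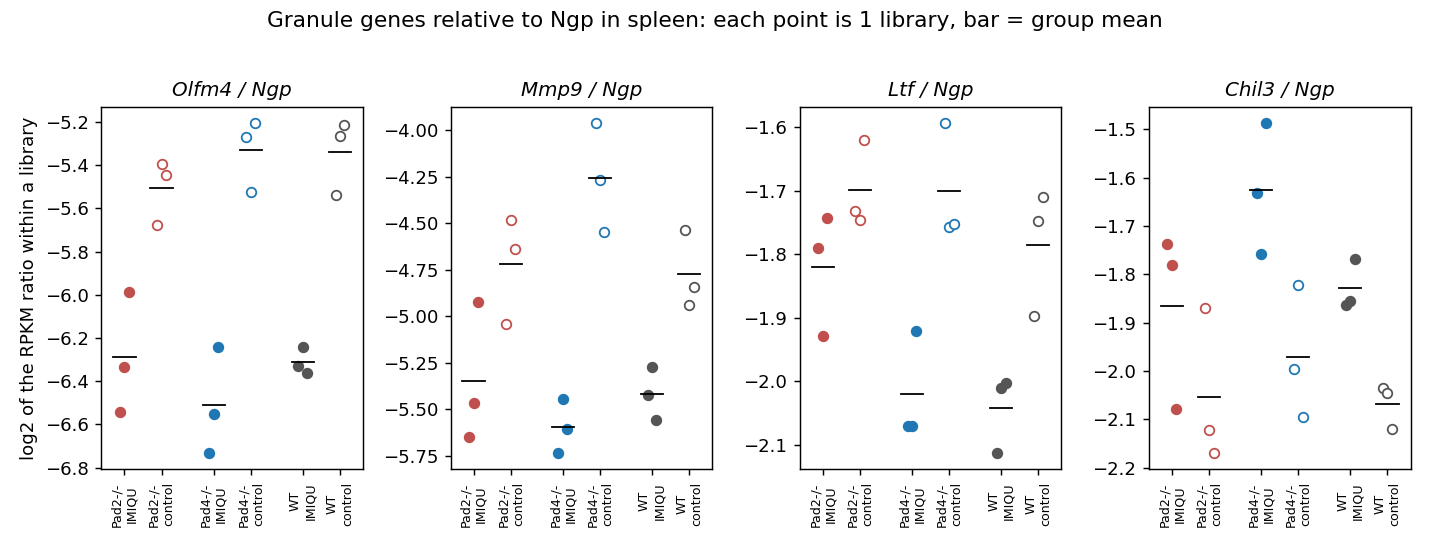
Log2 ratio of Olfm4, Mmp9, Ltf and Chil3 to Ngp within each spleen library, imiquimod libraries filled and control libraries open, bars at group means. Imiquimod libraries lie below all control libraries for Olfm4 and mostly below them for Mmp9 and Ltf, and mostly above them for Chil3.

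RPKM is scaled for length, so levels can be set side by side between genes. Ngp exceeded Camp in 18 of 18 spleen libraries, Camp exceeded Lcn2 in 18, and Lcn2 exceeded both Ltf and Chil3 in 18. Ltf and Chil3 were close: Ltf was above Chil3 in 1 of 9 IMIQU libraries and in 9 of 9 control libraries. Cd177, Mmp9, Mmp8 and Olfm4 followed at least several-fold lower. Mmp8 was above Olfm4 in 9 of 9 IMIQU libraries and in 3 of 9 control libraries, and Mmp9 was above Mmp8 in 6 of 9 IMIQU libraries and in 9 of 9 control libraries. The 9 genes together made up 1.48%, 2.00% and 1.58% of all RPKM in IMIQU Pad2-/- spleens, 1.21%, 1.74% and 0.503% in IMIQU Pad4-/- and 0.559%, 2.05% and 1.30% in IMIQU WT. In controls they made up 0.192% to 0.330% in Pad2-/-, 0.0559% to 0.0935% in Pad4-/- and 0.111% to 0.202% in WT. In replicate 2 of IMIQU Pad2-/- and of IMIQU WT, Ngp was the 8th most abundant gene of the library.

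In 2 of the 9 groups, IMIQU WT and IMIQU Pad4-/- spleen, all 9 genes had their lowest value in 1 library and their highest in another. All 9 were lowest in replicate 1 and highest in replicate 2 of the IMIQU WT spleens, with a median ratio of highest to lowest of 4.23. In IMIQU Pad4-/- spleens all 9 were lowest in replicate 3 and highest in replicate 2, with a median ratio of 3.67. In IMIQU Pad2-/- spleens, where 7 genes were lowest in replicate 1 and 5 highest in replicate 2, the median ratio was 1.38. The libraries with high granule genes also held more RNA of mature neutrophil genes: the geometric mean of S100a8, S100a9, Retnlg and Cxcr2 was 299, 1324 and 640 RPKM in IMIQU WT replicates 1, 2 and 3. In tissue RNA, more cells of a type and more RNA per cell cannot be told apart.

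Other genes of the neutrophil programme, from lists compiled with earlier results of these data known, changed with them in IMIQU spleens. Of 16 other specific or gelatinase granule genes tested, 16 rose in Pad2-/-, 15 in Pad4-/- and 16 in WT, with median log2 fold changes of 2.71, 2.76 and 2.70. In WT spleen they included Slc11a1 (3.25 ± 0.15), a metal transporter of granule membranes, Fpr2 (3.34 ± 0.36), a formyl peptide receptor, Itgb2 (0.95 ± 0.08), the beta-2 integrin, and Qsox1 (1.12 ± 0.12), a sulfhydryl oxidase. All 7 azurophil genes rose in each genotype, with medians of 3.27 in Pad2-/-, 4.15 in Pad4-/- and 3.94 in WT. Among them in WT spleen, Ms4a3, a marker of granulocyte and monocyte precursors, rose by 3.94 ± 0.49, the myeloperoxidase gene Mpo by 3.70 ± 0.48, and the protease genes Elane by 4.19 ± 0.54 and Prtn3 by 4.74 ± 0.61. All 7 mature neutrophil genes tested rose in each genotype, with medians of 3.01, 3.85 and 3.43.

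Of 8 regulators of granulocyte formation, 6 rose in Pad2-/-, 7 in Pad4-/- and 7 in WT spleen, and Runx1, a haematopoietic transcription factor, fell by 0.44 ± 0.09 in WT. Cebpe averaged 36.6 ± 21.9 RPKM in IMIQU WT spleens and 2.89 ± 0.997 in control WT spleens (SD, n = 3 each), a log2 fold change of 3.30 ± 0.44 (limma adjusted p = 7.82e-06). Over the 18 spleen libraries Cebpe was the non-member whose centred log2 profile lay closest to the mean profile of the 9 genes, with a root mean square difference of 0.14, closer than 7 of the 9 genes themselves. Chil1 (0.15), a chitinase-like gene, Anxa1 (0.16), for annexin A1, Ly6g (0.16), a neutrophil surface antigen, and Orm1 (0.19), for an acute-phase glycoprotein, came next. Among the 9 themselves Cd177 was closest to the mean profile (0.07) and Olfm4 farthest (0.46).

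Of 7 receptors, partners and inhibitors tested in spleen, 4 rose and 1 fell in each of the 3 genotypes. In WT spleen Slpi, for a secreted inhibitor of neutrophil elastase, averaged 526 ± 224 RPKM under IMIQU and 17.8 ± 4.04 in controls and rose by 4.77 ± 0.31. Slc22a17, for a receptor of lipocalin 2, fell by 0.57 ± 0.15, and Pecam1, for a binding partner of CD177, changed by -0.21 ± 0.11 and did not pass.

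Markers of other cell types changed in the same spleens. The summed level of 6 macrophage markers was 255 to 352 RPKM in IMIQU Pad2-/-, 227 to 331 in IMIQU Pad4-/- and 291 to 353 in IMIQU WT, against 36.7 to 64.4, 44.8 to 48.5 and 45.9 to 53.5 in the controls of the same genotypes, and all 6 rose in each genotype. The sum of 4 monocyte markers was 378 to 604 RPKM in IMIQU Pad2-/-, 415 to 537 in IMIQU Pad4-/- and 303 to 1078 in IMIQU WT, against 84.3 to 115, 61.2 to 66.7 and 80.0 to 84.9 in the controls of the same genotypes, and all 4 rose in each genotype. Of 4 eosinophil markers 3 rose and 1 fell in each genotype, with sums of 12.6 to 53.9 RPKM in IMIQU WT and 2.29 to 4.67 in control WT. Of 4 mast cell and basophil markers 3 rose in each genotype, with sums of 16.1 to 58.2 RPKM in IMIQU WT and 4.34 to 6.87 in control WT. The sum of 5 erythroid genes was 3967 to 51692 RPKM in IMIQU Pad2-/- and 2156 to 4558 in control Pad2-/-, 1793 to 29481 in IMIQU Pad4-/- and 1892 to 3332 in control Pad4-/-, and 4187 to 17125 in IMIQU WT and 925 to 1920 in control WT. That of 3 B cell markers was 476 to 765 in IMIQU WT and 1524 to 1787 in control WT, and all 3 B cell markers fell in each genotype. That of 3 T cell markers was 148 to 204 in IMIQU WT and 272 to 289 in control WT, and 1 of the 3 fell in Pad2-/-, 2 in Pad4-/- and 3 in WT. The sum of 5 epithelial markers was 2.76 to 5.57 RPKM in IMIQU WT and 3.39 to 4.58 in control WT. The part of these cells in the values of Chil3, Lcn2 and Mmp9, which macrophages can also make, was not tested.

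Between genotypes under IMIQU in spleen, no granule gene passed. In Pad2-/- against WT the 9 fold changes were all positive, with a median of 0.65 and a range of 0.54 to 0.86, beside -0.06 over all genes, and none had an unadjusted p below 0.05 (0 of 9 by limma, smallest adjusted p 0.399). There 0.150% of all genes rose at the adjusted threshold, and 15.6% had an unadjusted p below 0.05 in either direction. In Pad4-/- against WT the 9 were all negative, with a median of -0.24 and a range of -0.43 to -0.04, beside -0.04 over all genes, and again 0 had an unadjusted p below 0.05, against 23.8% of all genes in either direction, and 5.69% of all genes fell at the adjusted threshold. In Pad2-/- against Pad4-/- the median was 0.95, with 3 of 9 at an unadjusted p below 0.05, against 15.2% of all genes in either direction, and 0 past adjustment, where 0.134% of all genes rose. Without replicate 2 of IMIQU WT or replicate 3 of IMIQU Pad4-/- the median of Pad4-/- against WT was positive, at 0.22 and 0.29. The libraries overlapped for all 9 genes in both comparisons with WT. Ltf, Cd177 and Olfm4 did not overlap between Pad2-/- and Pad4-/-, as was the case for 4.93% of all genes, higher in Pad2-/-. With library weights 9 of 9 rose in Pad2-/- against Pad4-/- and 1 of 9 in Pad2-/- against WT. The share of all genes called with library weights is not given here, so these counts have no background. Calls over all genes were unstable when 1 library was left out. They ran from 18 to 1749 genes in Pad2-/- against Pad4-/- and from 9 to 734 in Pad2-/- against WT.

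The responses themselves were compared by interaction terms in the same fit. Both terms use the same WT libraries, IMIQU and control, so they are not independent. The log2 response of Pad2-/- minus that of WT had a median of -0.21 over the 9 genes and that of Pad4-/- minus WT a median of 0.66, beside -0.09 and -0.08 over all genes. None of the 9 passed in either (limma, 0 of 9 at an unadjusted p below 0.05 in both, against 7.81% and 14.4% of all genes, smallest adjusted p 0.963 and 0.594), where 0.0334% and 0.0668% of all genes passed. The largest was that of Camp in Pad4-/-, 0.91 ± 0.68 (SE, limma adjusted p = 0.606). The median for Pad2-/- was positive without replicate 2 of IMIQU WT, at 0.24, and with library weights, at 0.27.

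In control spleens the 3 genotypes lay in 1 order for all 9 genes, Pad2-/- above WT above Pad4-/- by group mean. Ltf was at 126, 76.4 and 107 RPKM in Pad2-/- controls and 22.98, 24.4 and 35.2 in Pad4-/- controls, against 40.2, 79.3 and 46.2 in WT controls. Camp was at 341, 208 and 207 in Pad2-/- and 51.6, 61.6 and 88.2 in Pad4-/-, against 115, 186 and 118 in WT. Olfm4 was at 8.20, 6.11 and 7.53 in Pad2-/- and 1.80, 1.80 and 3.22 in Pad4-/-, against 3.22, 6.92 and 4.07 in WT. The highest Pad4-/- library lay below the lowest WT library for each of the 9 genes, although by little for Olfm4.

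For Pad4-/- against WT the libraries of both groups did not overlap in 9 of 9 genes, all lower in Pad4-/-, as was the case for 10.6% of all genes. The log2 fold changes had a median of -0.94 and a range of -1.05 to -0.49, beside 0.05 over all genes. None passed in the fit of all groups, where 0.150% of all genes passed (limma, 2 of 9 at an unadjusted p below 0.05, against 6.69% of all genes, smallest adjusted p 0.737). In a fit of these 2 groups alone 6 of 9 fell, and with library weights 5 of 9. For Pad2-/- against Pad4-/- the libraries did not overlap in 9 of 9 genes, all higher in Pad2-/-, as for 11.3% of all genes. The log2 fold changes had a median of 1.79 and a range of 1.34 to 1.90, and none passed in the fit of all groups (9 of 9 at an unadjusted p below 0.05, against 7.21% of all genes, smallest adjusted p 0.213), where 0.192% of all genes rose. With only these groups in the fit, and with library weights, 9 of 9 rose. For neither comparison is the share of all genes called in these other fits given here. Their counts of granule genes thus have no background to be read against. For Pad2-/- against WT the median was 0.85 and the range 0.62 to 0.93, with 2 of 9 not overlapping against 11.4% of all genes higher without overlap, 0.108% of all genes passing upwards, and 0 of 9 past an unadjusted p of 0.05, against 1.96% of all genes, or an adjusted one (smallest adjusted p 1). These 3 comparisons share their libraries and are not independent.

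Mature neutrophil, other myeloid and erythroid genes are given for the same control spleens. The geometric mean of the same 4 mature neutrophil genes was 142, 104 and 114 RPKM in Pad2-/- and 39.7, 44.5 and 50.7 in Pad4-/-, against 64.8, 95.2 and 69.0 in WT. Over the list, 0 of 7 mature neutrophil genes and 0 of 7 azurophil genes passed in Pad4-/- against WT, with medians of -0.69 and -0.78. By sign 0 of the 7 mature neutrophil genes were higher in Pad4-/- than in WT and 6 of 7 were higher in Pad2-/- than in WT. The exception was Cxcr2, a chemokine receptor, at 9.37 ± 0.221 RPKM in Pad2-/- and 9.60 ± 0.569 in WT (SD, n = 3 each). Monocyte markers summed to 84.3 to 115 RPKM in Pad2-/- and 61.2 to 66.7 in Pad4-/-, against 80.0 to 84.9 in WT. All 4 were higher by sign in Pad2-/- and lower by sign in Pad4-/- than in WT, and 0 of 4 passed in either (limma, 0 of 4 at an unadjusted p below 0.05 in both). Eosinophil markers summed to 4.53 to 8.55 RPKM in Pad2-/- and 2.54 to 2.85 in Pad4-/-, against 2.29 to 4.67 in WT. Macrophage markers summed to 36.7 to 64.4 RPKM in Pad2-/- and 44.8 to 48.5 in Pad4-/-, against 45.9 to 53.5 in WT. Erythroid genes summed to 2156 to 4558 RPKM in Pad2-/- and 1892 to 3332 in Pad4-/-, against 925 to 1920 in WT. By sign 5 of 5 were higher in Pad2-/- than in WT, with a median log2 fold change of 1.31. In Pad4-/- 3 of 5 were higher than in WT, with a median of 0.72, and 0 of 5 passed in either. The part of cell numbers in the order of genotypes was not tested.

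In the LN under IMIQU, 8 of the 9 granule genes rose in Pad2-/- against WT. Olfm4, among these 8, was kept by the filter only through the Pad2-/- libraries, where it was at 1.26 to 5.33 RPKM. Elsewhere it reached 1 RPKM only in replicate 3 of WT (1.02) and replicate 1 of the group labelled Pad4-/- (1.11). Its calls and its lack of overlap in the LN are thus no support. Ngp was at 254, 41.6, 484 and 422 RPKM in Pad2-/- LN and 48.9, 15.5, 21.7 and 35.8 in the LN libraries labelled Pad4-/-, against 22.2, 15.6, 45.4 and 16.1 in WT LN. Replicates 1, 3 and 4 of Pad2-/- were several-fold above every other LN library, and replicate 2 fell within the WT range. Mmp8 was at 27.5, 4.71, 40.2 and 69.5 in Pad2-/- and 4.32, 1.95, 2.51 and 3.39 in the libraries labelled Pad4-/-, against 1.42, 1.87, 3.79 and 0.904 in WT. Mmp9 was at 36.5, 8.19, 40.4 and 33.0 in Pad2-/- and 4.53, 3.01, 3.54 and 4.42 in the libraries labelled Pad4-/-, against 2.72, 3.24, 5.82 and 1.66 in WT. For both proteases every Pad2-/- library, replicate 2 included, was above every other LN library.

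**Figure D4:**
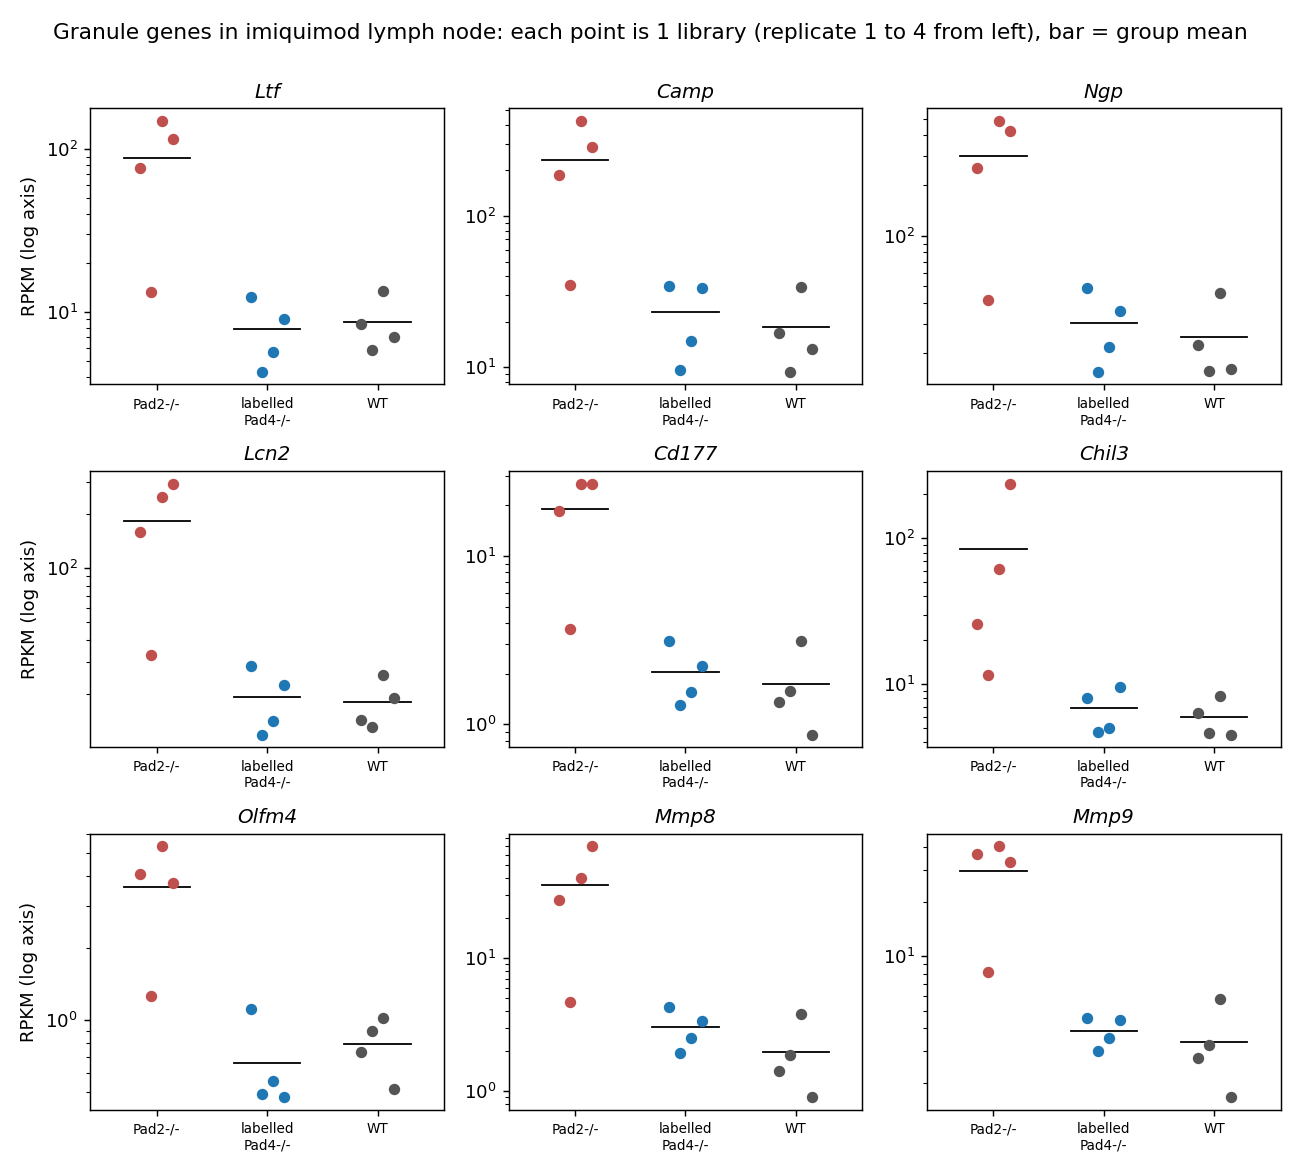
RPKM of the 9 granule genes in the 12 lymph node libraries, all from mice given imiquimod, on log axes, with bars at group means. In every panel the lowest Pad2-/- point is replicate 2, and the other 3 Pad2-/- points lie above all points of the other groups.

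In Pad2-/- against WT, 0.407% of the 12285 genes tested in the LN rose, beside the 8 of 9 granule genes. The 9 genes moved together, with all 9 lowest in replicate 2 within Pad2-/-, so they are not 9 separate observations. The median of the 9 log2 fold changes was 2.90, beside -0.12 over all genes. Mmp9 rose by 2.85 ± 0.42 (SE, limma adjusted p = 0.0119), Mmp8 by 3.47 ± 0.60 (adjusted p = 0.0215), Cd177 by 2.89 ± 0.50 (adjusted p = 0.0215) and Lcn2 by 2.97 ± 0.53 (adjusted p = 0.0223). Camp rose by 3.32 ± 0.65, Ngp by 3.24 ± 0.63, Ltf by 2.90 ± 0.58 and Olfm4 by 1.56 ± 0.30, with limma adjusted p-values of 0.0363 to 0.0418. Chil3 was at 25.8, 11.5, 61.8 and 237 RPKM in Pad2-/- and 6.35, 4.63, 8.31 and 4.52 in WT. It differed by 2.89 ± 0.64 (limma adjusted p = 0.0788) and did not pass. The libraries of both groups did not overlap in 7 of 9 genes, as was the case for 2.25% of all genes, higher in Pad2-/-.

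These calls lay close to the threshold and were lost in several other fits, while the 9 differences stayed positive. Without replicate 1 or 4 of WT, or replicate 1, 3 or 4 of Pad2-/-, 0 of 9 passed. Without replicate 2 of WT 1 of 9 passed, without replicate 3 of WT 6, and without replicate 2 of Pad2-/- 9, with a median log2 fold change of 3.65. In a fit of the 2 groups alone, and without the filter on low values, 0 of 9 passed, with library weights 1, with quantile normalization 3 and with median-ratio scaling 4. The range of medians over these 8 omissions was 2.63 to 3.65. Calls over all genes moved as well, from 4 to 225 genes in either direction over the same omissions. With quantile normalization 39 of all genes rose and with median-ratio scaling 49, against 50 in the main fit. For the other fits the number of all genes called is not given here.

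Against the LN libraries labelled Pad4-/-, 8 of 9 genes rose in Pad2-/-, again all but Chil3, with a median of 2.89, where 0.578% of all genes rose. Olfm4 is again among the 8, although the filter kept it only through the Pad2-/- libraries. Without both replicates 3 and 4 of the group labelled Pad4-/-, whose Padi4 level went against the label, 0 of 9 passed. Leaving out 1 library, 0 of 9 passed without replicate 1, 3 or 4 of Pad2-/- or replicate 2 or 4 of the group labelled Pad4-/-, 1 without its replicate 3, 5 without its replicate 1, and 9 without replicate 2 of Pad2-/-. Over these omissions of 1 library, 12 to 227 of all genes were called in either direction. The libraries did not overlap in 8 of 9 genes, all but Ngp, as for 1.51% of all genes, higher in Pad2-/-. The libraries labelled Pad4-/- against WT gave 0 of 9, with log2 fold changes of -0.18 to 0.58 (limma, 0 of 9 at an unadjusted p below 0.05, against 3.95% of all genes, adjusted p 1 for each), where 0.00814% of all genes rose. The libraries of these 2 groups overlapped for all 9 genes.

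Other neutrophil genes were higher in Pad2-/- LN as well. Of 6 mature neutrophil genes tested, 5 rose against WT, with a median of 3.03: Retnlg, for a resistin-like protein of neutrophils, by 3.88 ± 0.59, S100a8 and S100a9, for the calprotectin subunits, by 3.48 ± 0.56 and 3.40 ± 0.55, and Clec4e, for the lectin Mincle, by 1.54 ± 0.25. Of 16 other granule genes 4 rose, with a median of 0.50: Hp, for haptoglobin, by 2.43 ± 0.29, Pglyrp1, for a peptidoglycan recognition protein, by 1.29 ± 0.22, Lrg1, for a leucine-rich glycoprotein, by 0.83 ± 0.15, and Chil1 by 2.03 ± 0.35. Of 8 regulators Cebpe rose by 1.93 ± 0.36 and Csf3r, for the receptor of G-CSF, by 1.35 ± 0.26. None of 6 azurophil genes passed (limma, 0 of 6), although their median was 2.71. Macrophage markers summed to 394 to 491 RPKM in Pad2-/- LN and 440 to 571 in WT LN, with 0 of 6 past the threshold, monocyte markers to 286 to 899 in Pad2-/- and 332 to 461 in WT, with 0 of 4, and B cell markers to 315 to 682 in Pad2-/- and 587 to 807 in WT, with 0 of 3. Erythroid genes summed to 160 to 880 in Pad2-/- and 331 to 1735 in WT. The part of these other cells, or of blood, in the LN differences was not tested.

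Replicate 4 of Pad2-/- LN differed in makeup from the others of its group. Chil3 made up 15.95% of the summed level of the 9 genes there, against 3.27%, 7.58% and 4.17% in replicates 1, 2 and 3. The geometric mean of 4 azurophil genes (Mpo, Elane, Prtn3 and Ctsg) was 81.3 RPKM in that library and 12.3, 3.07 and 16.6 in the others, whereas that of the 4 mature neutrophil genes was 489 and 406, 101 and 544. Chil3 and azurophil genes were thus highest in the same library.

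The LN profile of the 9 genes differed in shape from that of spleen. The tables were deposited apart, so the values are set side by side without a test. Cd177 was above Mmp9 in 17 of 18 spleen libraries and above Mmp8 in 18 of 18, but below both in 12 of 12 LN libraries. The log2 ratio of Mmp8 to Ngp was -4.16 to -2.60 over the LN libraries and -5.95 to -5.17 over the spleen libraries. That of Mmp9 to Ngp was -3.68 to -2.27 in LN and -5.74 to -3.96 in spleen, and that of Lcn2 to Ngp was -0.96 to 0.25 in LN and -1.47 to -1.10 in spleen. Lcn2 exceeded Ngp in 1 LN library, replicate 4 of WT, and Camp exceeded Lcn2 in 8 of 12 LN libraries. The 9 genes made up 0.191%, 0.0352%, 0.375% and 0.404% of all RPKM in Pad2-/- LN and 0.0128% to 0.0313% in the libraries labelled Pad4-/-, against 0.0138% to 0.0340% in WT LN. No ratio to Ngp passed in Pad2-/- against WT LN, but with 4 libraries a group the smallest exact permutation p is 0.0286, and a single ratio at that p could not pass after adjustment over 8. The largest difference was that of Olfm4, whose ratio averaged -6.08 ± 0.78 in Pad2-/- and -4.87 ± 0.56 in WT (SD, n = 4 each), a difference of -1.21 (exact permutation p = 0.0571, adjusted p = 0.457, two-sided).

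Over the 12 LN libraries the non-members nearest to the mean profile of the 9 genes were Ifitm6 (root mean square difference 0.24 on the log2 scale), Ly6g (0.27), Wfdc21 (0.29), Gm5483 (0.33), for a stefin-like gene, and S100a9 (0.35). Ly6g was among the nearest 5 in both tissues. Among the 9, Cd177 was nearest to the mean (0.13) and Olfm4 farthest (0.71), the same ends as in spleen. Olfm4 was at 0.515 to 1.02 RPKM in WT LN and 0.476 to 1.11 in the libraries labelled Pad4-/-. At such levels the 0.5 added before the log narrows its profile, and the part of this in its distance was not tested.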

How the data were processed

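RNA was measured in 18 spleen and 12 LN libraries of poly(A)-enriched RNA. The authors deposited gene values as RPKM, per the file headers, in 1 table per tissue. Reads were handled with bcl2fastq 1.17.1 and TopHat2 2.1.0 and the genome build mm10 is named, per the submitters' processing notes. The tool that made RPKM, its annotation and its treatment of strand are not given in the sources at hand. Without counts the depth of a library is unknown, so no counting interval is given, and each table was tested on its own.

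Groups follow the labels. Each comparison came from a linear model (limma 3.58.1 under R 4.3.3, lmFit and eBayes with trend) of log2(RPKM + 0.5) for genes that reached 1 RPKM in 3 or more spleen or 4 or more LN libraries, with Benjamini-Hochberg adjustment and a threshold of 0.05. The test was checked on simulated data: for Pad2-/- against WT it recovered 85.1% of 67 genes changed by 1 on the log2 scale in IMIQU spleen (11982 genes) and 80.6% of 67 in LN (12285 genes), and at a change of 0.5 it recovered 52.2% of 67 in spleen and 25.4% of 67 in LN. These rates are over genes of every spread and do not describe the 9 granule genes, whose spread between libraries is wide. Ratios were tested by exact permutation, in LN with scipy 1.17.1 and in spleen by listing every arrangement of labels within genotype. No 2 libraries held identical values (0 pairs).

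The 9 genes and the other gene lists were chosen with earlier results of these data known. All 9 genes are named in every comparison. From each other list up to 4 genes with the smallest p past the threshold are named, with genes set beside a result, and in each tissue the 5 non-member genes nearest to the mean profile. Slc22a17, Runx1, Pecam1 and Slpi were named after their values were seen where this rule does not name them. Alternatives were other pseudocounts (0.1 and 1), no filter, quantile normalization, median-ratio scaling, library weights (limma's array weights), fits of the groups compared alone, a replicate block and leaving out each library. The alternatives for ratios were chosen after seeing the data. Promoter sequences and gene positions are from RefSeq on GRCm38.p6.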

Additional observations from a re-analysis of the deposited data

Results flagged for a closer look

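Olfm4 in the LN libraries labelled Pad4-/- had 1 library far from the others of its group. Replicate 1 was at 1.11 RPKM and the nearest of the others at 0.559 RPKM, a gap of 0.870 of the range of the group, above Dixon's 95% critical value for 4 samples. It was the 1 flag in 54 checks, and at this critical value chance alone flags some groups. The cause was not tested.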

How the results depend on the processing

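The imiquimod response of the 9 genes in spleen was called for all 9 in each genotype under every alternative run, and no other spleen comparison called a gene except as follows. With library weights 1 gene was called for Pad2-/- against WT and 9 for Pad2-/- against Pad4-/- under IMIQU, and in control spleens 5 fell for Pad4-/- against WT and 9 rose for Pad2-/- against Pad4-/-. In fits of the groups compared alone 6 and 9 were called in these control comparisons. In the LN, against 8 genes called, Pad2-/- against WT gave 0 without the filter, 3 with quantile normalization, 4 with median-ratio scaling, 1 with library weights, 0 in a fit of both groups alone, and 0 to 9 when 1 library was left out. Pad2-/- against the libraries labelled Pad4-/- gave 0, 5, 5, 0 and 2 in the same order, 0 to 9 when 1 library was left out, and 0 without replicates 3 and 4 of the labelled Pad4-/- group. Calls over all genes in the LN moved too when 1 library was left out. They ran from 4 to 225 genes for Pad2-/- against WT. For Pad2-/- against the libraries labelled Pad4-/- they ran from 12 to 227. The share of all genes called with library weights or in fits of the groups alone is not given here. Median log2 fold changes changed sign in 3 comparisons. They were -0.82 to 0.29 for Pad4-/- against WT under IMIQU and -0.76 to 0.24 for the response of Pad2-/- minus that of WT when 1 library was left out, and with library weights 0.27 for that response difference and -0.11 for the LN libraries labelled Pad4-/- against WT. The cause was not tested.

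With a replicate block the counts of called genes were 9, 9 and 9 for the imiquimod responses, 0 for the other spleen comparisons, and 8, 0 and 7 in the LN for Pad2-/- against WT, the libraries labelled Pad4-/- against WT, and Pad2-/- against them. The share of all genes called with a replicate block is not given here, so these counts of granule genes have no background. The deviations of same-numbered libraries from their group means had a median correlation of 0.05 in spleen and -0.01 in LN. In spleen 14 of 45 same-numbered pairs exceeded 0.1, against 17 of 90 pairs of different numbers. In LN these counts were 5 of 12 and 12 of 36. This check cannot show that same-numbered libraries share only a number. Calls of ratios to Ngp did not change side with Camp as the base, with a pseudocount of 0.5 or without any 1 library for Olfm4, Mmp9, Ltf and Chil3. RPKM without counts limits the precision of the low genes Olfm4, Mmp8 and Cd177 in LN.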
